A study of Mus musculus with 12 samples.

Results

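The genes described here encode potassium channels and voltage-gated calcium channels with their auxiliary subunits. They are 60 of the 19150 genes in a table of transcript levels from mouse back skin. Members are the genes whose symbol begins with Kcn or Cacn and that reached at least 1 FPKM (fragments scaled to transcript length and to library size) in at least 2 of 12 libraries, together with Abcc8 and Abcc9, which encode the sulfonylurea receptors of ATP-sensitive potassium (KATP) channels. Of 114 Kcn and Cacn genes listed, 58 reached that level and 56 did not. Abcc9 reached it, and Abcc8 stayed below 0.1 FPKM in every library. The question behind the series is how the dermal sheath contracts as the hair follicle regresses. All libraries came from flow-sorted cells of back skin taken at postnatal day 5 from CD1, an outbred mouse strain. Each of 6 populations had 2 libraries: dermal sheath (mesenchymal cells that wrap the follicle), dermal papilla (the mesenchymal cluster at its base), dermal fibroblasts, and outer root sheath, matrix (epithelial compartments of the follicle) and melanocytes. No treatment or transgene is stated for any group in the sources used here, nor are the sort gates or the number of animals behind a library.

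Potassium channels let potassium leave the cell or stabilise its resting potential, and so hold the membrane away from the voltage at which calcium channels open. Voltage-gated calcium channels admit calcium on depolarisation, and in smooth muscle the L-type channel is the main trigger of contraction, while KATP channels, opened when ATP is low, relax it. In the hair follicle, KATP channels are known as a target of minoxidil, a drug that opens channels carrying the SUR2 subunit encoded by Abcc9. Pore subunits form the channel, auxiliary subunits change its opening or its transport to the surface, and several Kv proteins are silent: they form no channel of their own and work only in complexes with pore subunits of the Kv2 type.

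The members took between 168 and 210 FPKM in sum in the sheath libraries, 252 and 284 in the papilla libraries and 157 and 185 in the fibroblast libraries. In the other populations the sum was between 80.7 and 114 FPKM. Cacng7 alone gave 69.7 and 52.9 FPKM of the papilla sums in replicates 1 and 2. It gave 7.66 and 6.45 FPKM in sheath and 9.48 and 5.46 FPKM in fibroblasts. In sheath, papilla and fibroblasts, 27, 28 and 30 members were at 1 FPKM or more in both libraries, against 15 in outer root sheath, 13 in matrix and 13 in melanocytes. Among the 59 members that reached the level, the papilla had the highest mean for 21 (35.6%, where it did for 18.1% of the 13974 genes that reached the level). The sheath had the highest mean for 12 (20.3%, against 17.4% of genes), fibroblasts for 8 (13.6%, against 9.45%), melanocytes for 7 (11.9%, against 20.4%), matrix for 6 (10.2%, against 22.2%) and outer root sheath for 5 (8.47%, against 12.5%). The members with the highest mean over all libraries were Cacnb3 at 25.3 FPKM, Cacna1g, Cacng7, Kcnj13 and Kcnq1ot1. The level that admits a member fell between Kcnd3, Kcnip2 and Kcnc2, whose second highest library was at 1.02, 1.05 and 1.07 FPKM, and Kcns3, Kcne1 and Kcnn4, at 0.991, 0.974 and 0.956 FPKM.

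Each marker gene of the 6 populations had its highest mean in the population labelled with it. Itga8, a sheath marker, overlapped with papilla (16.9 and 32.1 FPKM in sheath, 15.3 and 20.9 FPKM in papilla), and melanocyte markers were also high in fibroblasts, which touches several results below. The summed level of 8 melanocyte genes was 7205 and 7671 FPKM in the fibroblast libraries, where all 8 were above 1 FPKM. It was 33.6 and 42.5 FPKM in sheath, 97.2 and 105 FPKM in papilla and 13499 and 16279 FPKM in melanocytes. The median of the 8 genes in fibroblasts was 47.7% of the melanocyte mean in replicate 1 and 39.3% in replicate 2. The share differed widely between the genes. Tyr was at 232 and 380 FPKM in fibroblasts, against 1240 and 1668 FPKM in melanocytes. Mlana was at 3369 and 3140 FPKM in fibroblasts, against 5040 and 5033 FPKM in melanocytes. The subtractions of melanocyte RNA below use the medians alone and do not scale up the remainder. Summed FPKM ranged from 373066 to 524040 and genes at 1 FPKM or more from 10951 to 12413 per library. In sorted populations of this kind, fewer cells of a type and less RNA per cell cannot be told apart. A value of 0 can be a failed estimate, since Sparc was listed at 0 in both sheath libraries, against 7817 and 9367 FPKM in fibroblasts. Nothing in the labels says that replicates came from separate animals, so p-values measure only the spread between libraries, which may be technical.

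**Figure D1:**
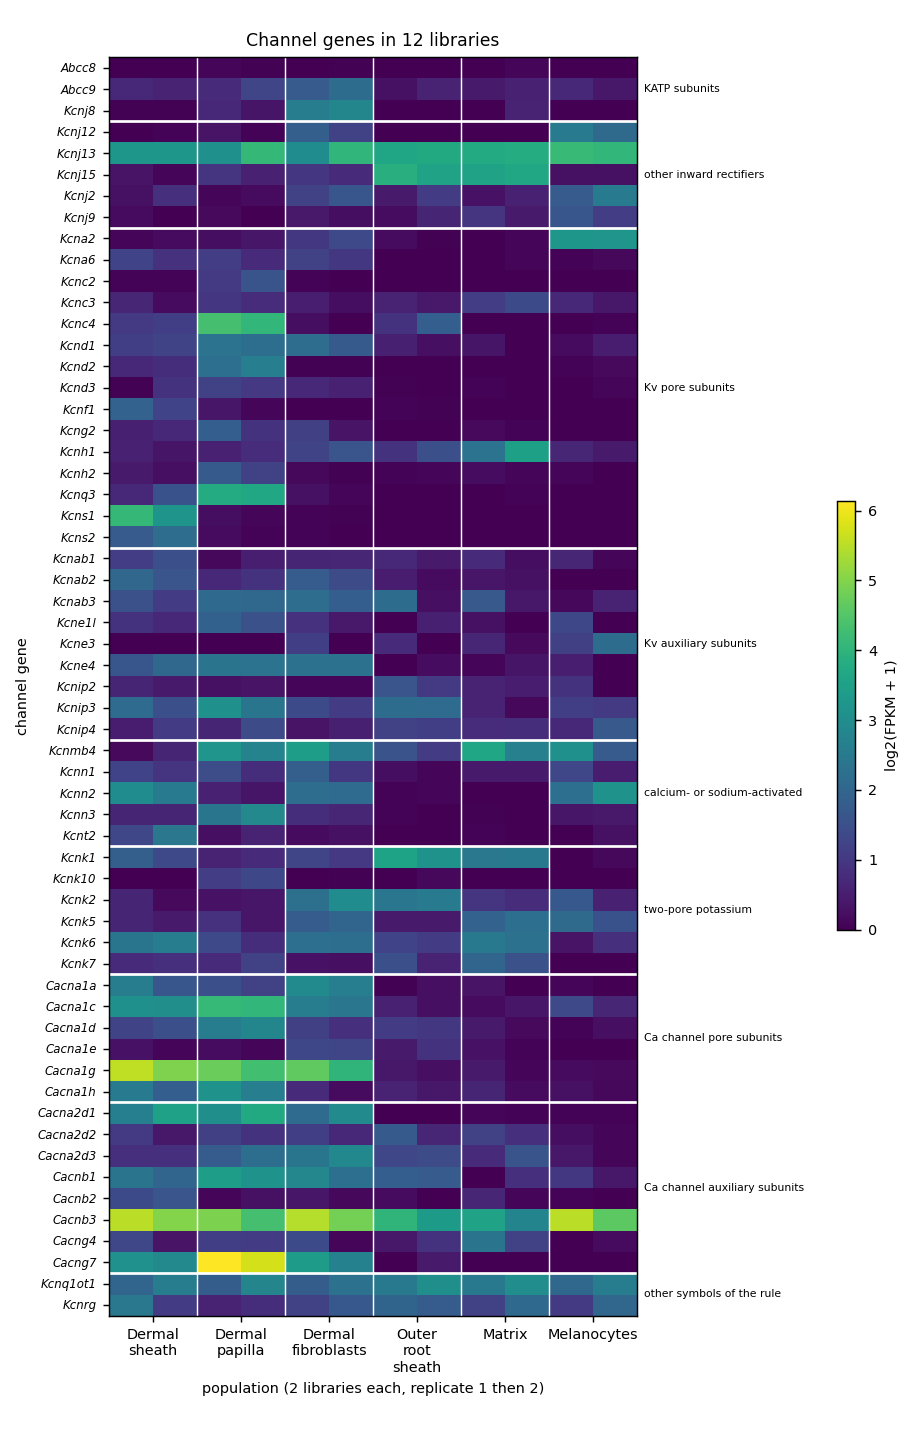
Level of 59 members in the 12 libraries, as log2(FPKM + 1), with members in rows grouped by family and libraries in columns, 2 per population. Calcium channel genes such as Cacna1g and Cacna2d1 are bright in the 6 libraries of the dermal populations and dark elsewhere, Kcnj15 is bright in outer root sheath and matrix, and Cacnb3, Kcnj13 and Kcnq1ot1 are present in all 12.

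Channel genes separated the dermal populations from each other, and the papilla held the most members higher than in all other populations. Genes were tested with limma on log2(FPKM + 1) and called where the Benjamini-Hochberg adjusted p over all tested genes was below 0.05 with a log2 difference of 1 or more in size, and folds below are on the FPKM + 1 scale, which understates the change of low genes. Over all 6 populations, 11 of 59 members were higher in papilla than in each of the other 5 (18.6%, background 3.21% of genes), among them Cacng7, Kcnc4 and Kcnq3. In sheath 5 were (8.47%, background 3.38%): Kcns1, Kcns2, Kcnt2, Kcnf1 and Cacnb2. In fibroblasts it was Kcnj8 (1 member, background 1.07%), in matrix Kcnh1 (background 1.14%) and in melanocytes Kcna2 (background 2.76%). In outer root sheath 0 were called by limma (background 1.16%), and 0 at an unadjusted p under 0.05. With a pseudocount of 5 the counts fell to 3 in papilla and 1 in sheath, and quantile normalization left 7 in papilla. Some members reached 1 FPKM only in the population where they were called. These include Kcnc2, Kcnd2, Kcnh2 and Kcnk10 in papilla, all 5 called in sheath, and Kcnj8 in fibroblasts. The sheath count thus rests wholly on members admitted through sheath. Such genes became members through that population alone, and the genes of the background passed the same filter.

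Within the dermis, 53 members were measured at 1 FPKM or more in at least 2 of the 6 dermal libraries and were tested. In papilla against fibroblasts 14 were higher (26.4%, background 8%) and 9 lower (17%, background 7.16%). In sheath against papilla 8 were higher (15.1%, background 7.96%) and 14 lower (26.4%, background 7.56%), and quantile normalization gave 10 higher and 10 lower. In sheath against fibroblasts 6 were higher (11.3%, background 7.56%) and 9 lower (17%, background 6.6%). The median log2 difference of tested members was 0.12 in papilla minus fibroblasts (0.06 over all genes), -0.31 in sheath minus papilla (-0.09) and 0.09 in sheath minus fibroblasts (-0.02). The 3 comparisons share libraries. Several of these counts were smaller under other settings. The 9 lower in papilla than in fibroblasts became 4 (7.55%, near the background) after subtraction of melanocyte RNA, 3 (5.66%) without papilla replicate 2 and 5 without fibroblast replicate 2. The 8 higher in sheath than in papilla became 4 (7.55%) without papilla replicate 2, and 5 after the subtraction. The subtraction changes no sheath or papilla value, but the dermal populations share 1 fit and its spread. The 6 higher in sheath than in fibroblasts became 3 (5.66%) without fibroblast replicate 2, but 7 (13.2%) after the subtraction. The 9 lower in sheath than in fibroblasts became 5 without sheath replicate 2, and the 14 lower in sheath than in papilla became 9 without sheath replicate 1 or papilla replicate 2. With a pseudocount of 5, 0 to 5 members were called per comparison and direction. In all, 34 members were called in at least 1 comparison (64.2%, background 25.5%) and 19 in none. In sheath 5 were higher than in both other dermal populations (9.43%, background 4.7%), in papilla 11 (20.8%, background 4.8%) and in fibroblasts 5 (9.43%, background 3.94%).

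**Figure D2:**
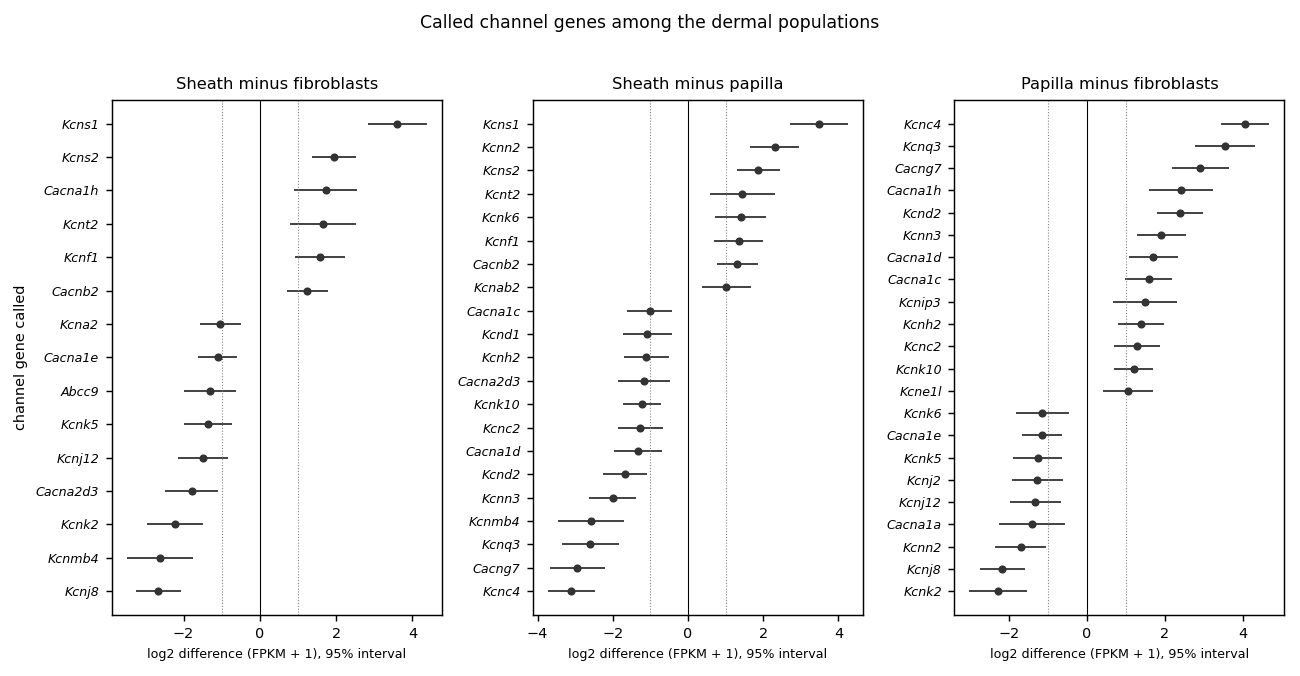
Members called in the 3 dermal comparisons, 1 left out, with the log2 difference in FPKM + 1 on the horizontal axis; points are estimates, bars 95% intervals, and dotted lines mark the threshold of 1. Kcns1 stands farthest to the right in both sheath panels at 3.60 and 3.48, Kcnc4 farthest to the right in papilla minus fibroblasts at 4.07, and Kcnj8 and Kcnk2 at the left in both comparisons with fibroblasts.

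To show the DNA at the start of members with large differences, the promoters of Kcns1 (high in sheath), Kcnc4 and Cacng7 (high in papilla) and Kcnj8 (high in fibroblasts) are given, with that of Abcc9, the neighbour and channel partner of Kcnj8, printed 5′ to 3′ on the strand of the gene, from 250 bases before to 50 bases after the start in RefSeq on GRCm38.p6. Capitals mark CATTCC or its reverse complement, the core recognised by TEAD factors.
Kcns1, chr2:164171064-164171363, minus strand: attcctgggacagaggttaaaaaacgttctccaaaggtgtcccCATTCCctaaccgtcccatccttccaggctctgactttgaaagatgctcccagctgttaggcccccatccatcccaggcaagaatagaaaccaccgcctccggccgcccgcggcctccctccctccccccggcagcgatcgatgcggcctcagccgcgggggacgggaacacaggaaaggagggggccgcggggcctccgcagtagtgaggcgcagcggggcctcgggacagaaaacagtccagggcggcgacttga
Kcnc4, chr3:107458849-107459148, minus strand: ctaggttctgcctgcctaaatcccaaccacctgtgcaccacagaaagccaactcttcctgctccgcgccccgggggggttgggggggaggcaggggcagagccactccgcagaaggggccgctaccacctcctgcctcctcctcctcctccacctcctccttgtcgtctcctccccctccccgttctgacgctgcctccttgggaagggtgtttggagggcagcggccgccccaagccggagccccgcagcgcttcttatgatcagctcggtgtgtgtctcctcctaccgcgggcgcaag
Cacng7, chr7:3332575-3332874, plus strand: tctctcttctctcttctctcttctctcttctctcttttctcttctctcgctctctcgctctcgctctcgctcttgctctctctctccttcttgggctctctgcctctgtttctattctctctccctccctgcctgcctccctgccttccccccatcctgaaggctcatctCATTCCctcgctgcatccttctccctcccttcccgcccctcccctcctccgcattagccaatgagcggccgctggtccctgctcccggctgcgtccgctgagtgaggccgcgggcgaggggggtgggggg
Kcnj8, chr6:142571565-142571864, minus strand: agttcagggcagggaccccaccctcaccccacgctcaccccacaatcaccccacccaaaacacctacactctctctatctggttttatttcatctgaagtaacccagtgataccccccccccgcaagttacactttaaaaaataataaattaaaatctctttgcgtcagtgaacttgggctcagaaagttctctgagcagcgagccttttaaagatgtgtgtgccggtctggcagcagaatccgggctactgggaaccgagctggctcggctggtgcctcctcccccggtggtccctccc
Abcc9, chr6:142702225-142702524, minus strand: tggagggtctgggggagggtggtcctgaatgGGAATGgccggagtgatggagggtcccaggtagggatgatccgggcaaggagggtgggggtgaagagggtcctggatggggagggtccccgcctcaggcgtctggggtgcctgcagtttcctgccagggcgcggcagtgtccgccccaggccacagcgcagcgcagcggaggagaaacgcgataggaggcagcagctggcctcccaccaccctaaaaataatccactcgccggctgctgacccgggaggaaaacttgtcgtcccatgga
RefSeq held promoters for 46 of the 60 members, 68 in all. CATTCC, searched on both strands, was in 10 of the 68, against 14.66% of 32851 promoters of the same length. The CArG box, which serum response factor recognises in smooth muscle genes, was in 0 of the 68 and in 1.63% of all promoters. TATAAA, the core of the TATA box, which a CArG box can contain, was in 5 of the 68 and in 13.62% of all. The median number of CpG dinucleotides was 10 in the members' promoters and 7 over all. These are matches of letters, not measured binding sites.

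Transcripts of the vascular type of KATP channel were found in dermal fibroblasts and were low in sheath and papilla. Kcnj8, which encodes the pore of that channel (chromosome 6, 142564837 to 142571614 in GENCODE M21 on mm10), was at 0.0294 and 0.0247 FPKM in sheath and 0.597 and 0.279 FPKM in papilla, against 5.00 and 6.01 FPKM in fibroblasts. Both fibroblast libraries lay above all others of the 12; outer root sheath and melanocytes were listed at 0 in all 4 libraries and matrix at 0 and 0.495 FPKM. Kcnj8 was 6.31-fold lower in sheath than in fibroblasts (log2 -2.66, SE 0.252, adjusted p = 0.000373) and 4.54-fold lower in papilla (log2 -2.18, adjusted p = 0.000891). Sheath and papilla did not differ by the test (log2 -0.48, 95% interval -1.06 to 0.11), but a pseudocount of 0.1 gave a call (log2 -2.02, adjusted p = 0.0429, over its 15 alternatives 0.0429 to 0.618).

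Abcc9, the SUR2 subunit, lies 16248 bases from Kcnj8 on the same strand (chromosome 6, 142587862 to 142702315). It was at 0.639 and 0.527 FPKM in sheath and 0.650 and 1.42 FPKM in papilla, against 2.38 and 3.49 FPKM in fibroblasts. The fibroblast libraries were again the highest of the 12, and the remaining 6 libraries lay between 0.205 and 0.631 FPKM. Abcc9 was 2.46-fold lower in sheath than in fibroblasts (log2 -1.30, adjusted p = 0.0210). That call was lost without sheath replicate 1 (adjusted p = 0.0618), sheath replicate 2 (0.0774) or fibroblast replicate 2 (0.118), over a range of 0.00558 to 0.118 in 14 alternatives. In papilla minus fibroblasts the difference was -0.96 (adjusted p = 0.0640), which quantile normalization moved to -1.05 (adjusted p = 0.0426). Of the subunits of the pancreatic type, Abcc8 was at no more than 0.0853 FPKM. Kcnj11 was listed at 0 in all 12 libraries, which can be a failed estimate.

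The levels of Kcnj8 and Abcc9 are set beside those of other cells that could be in a sort. A list of 7 pericyte and vascular smooth muscle genes summed to 209 and 242 FPKM in sheath, 39.8 and 48.1 FPKM in papilla and 74.9 and 85.5 FPKM in fibroblasts, with 6, 5 and 6 of the 7 at 1 FPKM or more. Mcam, Ndufa4l2 and Cspg4 made up most of the sum in sheath, while Des was at 2.00 and 0.379 FPKM in sheath, against 10.9 and 5.85 FPKM in fibroblasts, and Higd1b was below 1 FPKM in all 12 libraries. The part of such cells in the levels of Kcnj8 and Abcc9 was not tested. In melanocytes Kcnj8 was listed at 0, and subtracting the melanocyte share from the fibroblast libraries left Kcnj8 at 5.00 and 6.01 FPKM and Abcc9 at 2.15 and 3.30 FPKM, with the calls of both against sheath kept.

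Among the other inward rectifiers, which pass potassium more readily into the cell than out and hold the resting potential, 3 were tested in the dermis, and by limma 0 of these were higher in sheath or papilla than in fibroblasts and 0 were called in sheath against papilla. Kcnj12 was at 0 and 0.0464 FPKM in sheath and 0.260 and 0.0356 FPKM in papilla, against 2.63 and 1.28 FPKM in fibroblasts, and melanocytes were above all of these at 4.70 and 3.38 FPKM. It was called lower than in fibroblasts in sheath (log2 -1.49, adjusted p = 0.00924) and in papilla (log2 -1.33, adjusted p = 0.0149). Kcnj2 was at 0.0751 and 0.134 FPKM in papilla, against 1.29 and 2.15 FPKM in fibroblasts (log2 -1.28, adjusted p = 0.0183), and at 2.40 and 4.92 FPKM in melanocytes. Both genes were highest in melanocytes, the cell type whose markers were found in the fibroblast libraries. With the melanocyte share subtracted, neither was called (Kcnj12 log2 -0.35 and -0.19, Kcnj2 log2 -0.24). Without papilla replicate 2, the papilla calls of Kcnj12 (adjusted p = 0.0803, over its alternatives 0.00387 to 0.584) and Kcnj2 (0.0679, over its alternatives 0.00545 to 0.545) were lost, as was that of Kcnj12 without fibroblast replicate 1 (0.0689) and that of Kcnj2 without papilla replicate 1 (0.0850) or fibroblast replicate 2 (0.0945).

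Kcnj15 was the inward rectifier of the follicle epithelium, a gene singled out after its values were seen. It was at 13.3 and 10.7 FPKM in outer root sheath and 10.6 and 11.7 FPKM in matrix, against at most 0.957 FPKM in the other 8 libraries. It was the only member higher in outer root sheath and in matrix than in each of the other 4 populations (background 4.1% of genes), by at least 6.75-fold in each of the 8 contrasts (largest adjusted p = 9.4e-06). Kcnj13, by contrast, was at 6.98 to 17.0 FPKM in every library and was called in no dermal comparison. A share of 49.1% of its exonic bases overlaps Gigyf2 on the opposite strand, and whether reads were assigned by strand is not given in the sources used here, so its level cannot be told apart from that of Gigyf2. Kcnj9 reached 2.11 and 1.17 FPKM in melanocytes and stayed below 1 FPKM elsewhere.

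The pore subunits of voltage-gated potassium channels, 16 members, included the largest differences between sheath and papilla, those of Kcns1 and Kcnc4. Of 15 tested, 3 were higher and 7 lower in sheath than in papilla, 6 were higher and 0 lower in papilla than in fibroblasts by limma, and 3 were higher and 1 lower in sheath than in fibroblasts. Their summed level was 21.9 and 28.5 FPKM in sheath, 46.7 and 53.8 FPKM in papilla and 8.43 and 10.4 FPKM in fibroblasts.

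Of the silent subunits among the members, 3 were higher in sheath than in both other dermal populations and Kcng2 was not. Kcns1 (chromosome 2, 164163619 to 164171113), the promoter of which is printed above, was at 16.1 and 8.02 FPKM in sheath, against 0.171 and 0.0601 FPKM in papilla and 0.0357 and 0.0168 FPKM in fibroblasts. The other 6 libraries were listed at 0, so the sheath libraries were the only ones of the 12 at 1 FPKM or more. Kcns1 was 11.1-fold higher in sheath than in papilla (log2 3.48, SE 0.335, adjusted p = 0.000394) and 12.1-fold higher than in fibroblasts (log2 3.60, adjusted p = 0.000346). Kcns2, its close relative, was at 2.42 and 3.58 FPKM in sheath, against 0.134 and 0.0411 FPKM in papilla and 0.0466 and 0.00860 FPKM in fibroblasts, and was 3.64-fold higher in sheath than in papilla (adjusted p = 0.00167) and 3.85-fold higher than in fibroblasts (adjusted p = 0.00135). Kcnf1, another silent subunit, was at 2.79 and 1.36 FPKM in sheath, against 0.288 and 0.0766 FPKM in papilla, and was listed at 0 in both fibroblast libraries. It was 2.54-fold higher in sheath than in papilla (adjusted p = 0.0146), a call lost without sheath replicate 1 (adjusted p = 0.0625) or papilla replicate 2 (0.0790), over a range of 0.00194 to 0.0790. Kcng2 was at 0.460 and 0.620 FPKM in sheath and 2.58 and 0.866 FPKM in papilla, against 1.25 and 0.242 FPKM in fibroblasts, and was called in no dermal comparison. Kcnb2, a Kv2 pore that silent subunits join, did not reach the level of members and was at 0.0273 and 0.0288 FPKM in sheath.

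Several pores that form channels of their own were higher in papilla than in both other dermal populations. Kcnc4, a fast pore that shortens action potentials in neurons (chromosome 3, 107438303 to 107459552), was at 19.1 and 15.8 FPKM in papilla, against 0.170 and 0.0150 FPKM in fibroblasts. In sheath it was at 1.07 and 1.20 FPKM, and the next highest population, outer root sheath, was at 0.859 and 2.54 FPKM. Kcnc4 was 16.8-fold higher in papilla than in fibroblasts (log2 4.07, SE 0.267, adjusted p = 7.9e-05) and 8.59-fold lower in sheath than in papilla (log2 -3.10, adjusted p = 0.000263).

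Kcnq3 encodes a pore of the M current, which damps repetitive firing in neurons (chromosome 15, 65986387 to 66286642). It was at 12.7 and 11.8 FPKM in papilla, against 0.214 and 0.0629 FPKM in fibroblasts, and at 0.638 and 1.93 FPKM in sheath. The papilla libraries lay well above every other library, and the 6 libraries outside the dermis were at most 0.0458 FPKM. Kcnq3 was 11.6-fold higher in papilla than in fibroblasts (log2 3.54, adjusted p = 0.000314) and 6.04-fold lower in sheath than in papilla (adjusted p = 0.00145). Kcnq5, a pore it is known to pair with in neurons, was at no more than 0.0895 FPKM in papilla.

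The same order, papilla above both other dermal populations, held for a pore of the transient A-type current. Kcnd2 was at 3.70 and 5.16 FPKM in papilla, against 0.0236 and 0.0290 FPKM in fibroblasts, and at 0.645 and 0.744 FPKM in sheath (5.25-fold higher in papilla than in fibroblasts, adjusted p = 0.000560; 3.18-fold lower in sheath than in papilla, adjusted p = 0.00314). Kcnc2 and Kcnh2, the pore of the cardiac rapid delayed rectifier, were also called in both comparisons, at lower levels of 1.07 to 2.31 FPKM in papilla. Kcnd1, an A-type pore, was lower in sheath than in papilla (1.22 and 1.40 FPKM, against 4.08 and 3.68 FPKM; adjusted p = 0.0350) and was at 3.61 and 2.36 FPKM in fibroblasts. These last 3 were named after their values were seen, and their calls rested on single libraries more often. Kcnd1 was lost without any of the 4 sheath and papilla libraries (adjusted p 0.0939 to 0.156), under quantile normalization and with no filter on low values (0.0746), over a range of 0.00756 to 0.156. Kcnh2 in sheath minus papilla was lost without sheath replicate 1 (0.0520) or 2 (0.0891) or papilla replicate 1 (0.0920), over a range of 0.00380 to 0.0920, and its call in papilla minus fibroblasts was kept without any 1 library. Kcnc2 was lost in sheath minus papilla without papilla replicate 2, where the log2 difference was -0.99 (adjusted p = 0.0439, the highest over its alternatives, the lowest being 0.00134), and in papilla minus fibroblasts without fibroblast replicate 2 (0.0507, over a range of 0.00120 to 0.0507).

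Outside the dermis, Kcna2 and Kcnh1 stood out. Kcna2, a low-threshold delayed rectifier, was at 8.50 and 8.29 FPKM in melanocytes, against 1.01 and 1.54 FPKM in fibroblasts and at most 0.295 FPKM in the other 8 libraries. It was 4.16-fold higher in melanocytes than in fibroblasts, the next highest population, and more against each of the other 4 (largest adjusted p = 4.0e-05). Its call in sheath minus fibroblasts (log2 -1.04, adjusted p = 0.0203) turned to 0.13 (adjusted p = 0.441) when the melanocyte share was subtracted, which left 0 FPKM in both fibroblast libraries. It was also lost without sheath replicate 1 (0.0851) or 2 (0.0590) or fibroblast replicate 2 (0.102), over a range of 0.00600 to 0.441. Kcnh1, a pore of the ether-a-go-go family, was at 4.04 and 10.2 FPKM in matrix, against 1.39 and 2.05 FPKM in fibroblasts and at most 1.84 FPKM in the other 8 libraries. It was at least 2.79-fold higher in matrix than in each of the other 5 populations (largest adjusted p = 0.0149), but the matrix libraries differed from each other, and the call against all 5 was lost without fibroblast replicate 1, outer root sheath replicate 1 or matrix replicate 2. At an unadjusted p under 0.05 Kcnh1 passed without either of the first 2 of these libraries and not without matrix replicate 2.

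**Figure D3:**
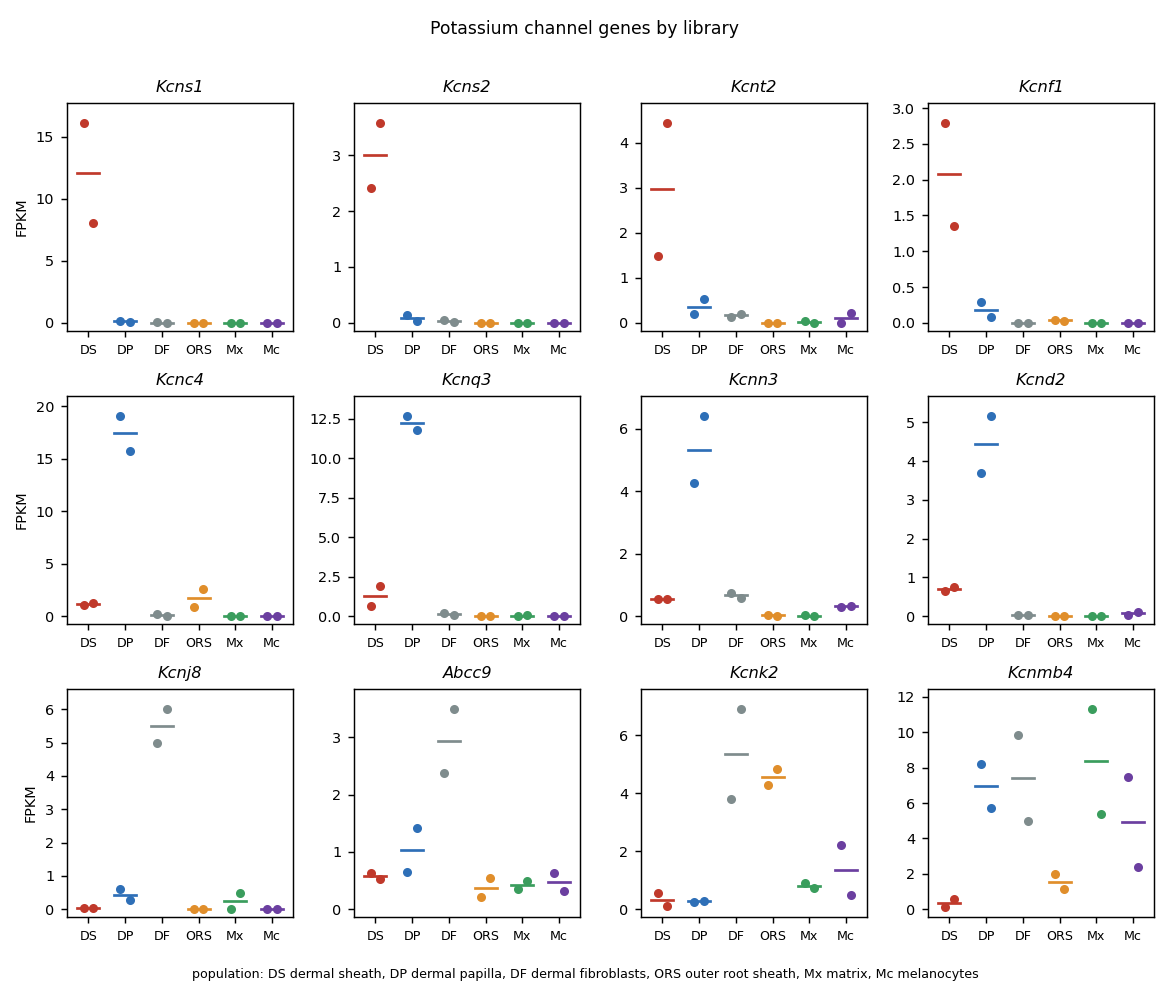
FPKM of 12 potassium channel genes in each library, 1 panel per gene with its own vertical axis; points are libraries, lines the mean of 2, and populations run from dermal sheath (DS) to melanocytes (Mc). Kcns1, Kcns2, Kcnt2 and Kcnf1 stand apart in sheath, Kcnc4, Kcnq3, Kcnn3 and Kcnd2 in papilla, and Kcnj8 and Abcc9 in fibroblasts, while Kcnmb4 is low in sheath and present in the other populations.

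Of the auxiliary subunits of voltage-gated potassium channels, 9 are members. Of 7 tested, 1 was higher in sheath than in papilla, 2 were higher in papilla than in fibroblasts, and 0 were called in sheath against fibroblasts by limma. Kcnab2, a beta subunit that binds Kv pores in the cytoplasm, was at 3.04 and 2.05 FPKM in sheath, against 0.607 and 0.867 FPKM in papilla (log2 1.02, adjusted p = 0.0464). This call lay at both thresholds: over its 15 alternatives the adjusted p ranged from 0.0129 to 0.209, and it was lost without any of the 6 dermal libraries (0.0574 to 0.209) and with no filter on low values (0.0809). Kcnip3, a calcium-binding partner of A-type pores that is also known as a transcriptional repressor, was at 7.42 and 4.25 FPKM in papilla, against 1.62 and 1.12 FPKM in fibroblasts (adjusted p = 0.0240). Kcne1l was at 2.74 and 1.87 FPKM in papilla, against 0.829 and 0.340 FPKM in fibroblasts (adjusted p = 0.0357). Without papilla replicate 1 or fibroblast replicate 1 or 2 the call of Kcnip3 was lost (0.145, 0.0678 and 0.139, over a range of 0.00113 to 0.145). That of Kcne1l was lost without any of the 4 papilla and fibroblast libraries (0.0551 to 0.211, over a range of 0.00837 to 0.211). With no filter on low values both were lost (0.0693 and 0.0509). Kcne4, which inhibits some Kv channels, was present throughout the dermis at 2.14 and 3.21 FPKM in sheath, 4.11 and 4.07 FPKM in papilla and 3.92 and 3.88 FPKM in fibroblasts, and at no more than 0.436 FPKM elsewhere.

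Calcium- and sodium-activated potassium channels link calcium or sodium inside the cell to the membrane potential, and sheath and papilla differed in which of them were higher. Kcnn2 and Kcnn3 encode small-conductance calcium-activated channels. Kcnn2 was at 6.91 and 4.77 FPKM in sheath, against 0.472 and 0.273 FPKM in papilla, 4.94-fold higher in sheath (log2 2.30, adjusted p = 0.00120). Kcnn3 was the reverse, at 0.559 and 0.554 FPKM in sheath, against 4.26 and 6.41 FPKM in papilla, 4.01-fold lower in sheath (adjusted p = 0.00191).

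In fibroblasts Kcnn2 was at 3.56 and 3.41 FPKM and Kcnn3 at 0.732 and 0.589 FPKM. Sheath minus fibroblasts was not called by limma for Kcnn2 as deposited (log2 0.59, adjusted p = 0.244). Subtracting the melanocyte share left Kcnn2 at 0.824 and 1.15 FPKM in the fibroblast libraries, further below sheath. Kcnn2 was 3.28-fold lower in papilla than in fibroblasts (adjusted p = 0.00486), but melanocytes held 3.75 and 7.71 FPKM of it, and subtracting the melanocyte share ended that call (log2 -0.53, adjusted p = 0.175, over its alternatives 0.000634 to 0.175). Kcnn3 was 3.77-fold higher in papilla than in fibroblasts (adjusted p = 0.00239). Kcnt2, a sodium-activated channel, was at 1.49 and 4.44 FPKM in sheath, against 0.190 and 0.535 FPKM in papilla and 0.141 and 0.202 FPKM in fibroblasts. It was 2.72-fold higher in sheath than in papilla (adjusted p = 0.0340) and 3.14-fold higher than in fibroblasts (adjusted p = 0.0210). Leaving out sheath replicate 2 ended both calls (adjusted p = 0.106 and 0.0557), as did leaving out either papilla library (0.162 and 0.0763) in sheath minus papilla and either fibroblast library (0.0848 and 0.0730) in sheath minus fibroblasts, over ranges of 0.00481 to 0.162 and 0.00311 to 0.0848. Both were also lost with no filter on low values (0.0763 and 0.0547).

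Kcnmb4, an auxiliary subunit of the large-conductance calcium-activated channel, was low in sheath and higher in both other dermal populations. It was at 0.108 and 0.556 FPKM in sheath, against 8.23 and 5.69 FPKM in papilla and 9.86 and 4.98 FPKM in fibroblasts, and matrix and melanocyte libraries were at 2.39 FPKM or more. Kcnmb4 was 5.99-fold lower in sheath than in papilla (log2 -2.58, SE 0.378, adjusted p = 0.00274) and 6.14-fold lower than in fibroblasts (log2 -2.62, adjusted p = 0.00253). Antisense genes overlap 20.8% and 10.7% of its exonic bases. The pore it joins, Kcnma1, stayed below the level: it was at 0.201 and 0.0742 FPKM in sheath, 0.695 and 0.941 FPKM in papilla and 0.132 and 0.464 FPKM in fibroblasts. Kcnmb1, the auxiliary subunit of that channel in smooth muscle, was at 0.633 and 0.737 FPKM in sheath, 0.0184 and 0.151 FPKM in papilla and 0.400 and 0.200 FPKM in fibroblasts, and below the level as well.

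Tandem-pore potassium channels carry the background current that sets the resting potential, and of 5 tested 2 were lower in sheath and 3 lower in papilla than in fibroblasts. Kcnk2, which opens on membrane stretch, was at 0.548 and 0.111 FPKM in sheath and 0.236 and 0.292 FPKM in papilla, against 3.82 and 6.91 FPKM in fibroblasts. Outer root sheath reached a like level, 4.28 and 4.84 FPKM. Kcnk2 was 4.70-fold lower in sheath than in fibroblasts (log2 -2.23, adjusted p = 0.00240) and 4.88-fold lower in papilla (log2 -2.29, adjusted p = 0.00218), and both calls were kept when the melanocyte share was subtracted.

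Kcnk5, a pH-sensitive channel, was at 0.558 and 0.357 FPKM in sheath and 0.832 and 0.286 FPKM in papilla, against 2.44 and 3.01 FPKM in fibroblasts, with calls in both comparisons (adjusted p = 0.0127 and 0.0159). Melanocytes held 3.34 and 1.93 FPKM of it, and with their share subtracted the adjusted p was 0.0788 and 0.0870. Both calls were also lost without fibroblast replicate 2 (0.0662 and 0.0804), that in sheath without sheath replicate 2 (0.0586) and that in papilla without papilla replicate 2 (0.1), over ranges of 0.00547 to 0.0788 and 0.00678 to 0.1. Kcnk6, a background channel of the same family, was lowest in papilla among the dermal populations. It was at 4.19 and 4.95 FPKM in sheath and 1.56 and 0.736 FPKM in papilla, against 3.70 and 3.66 FPKM in fibroblasts. It was 2.64-fold higher in sheath than in papilla (adjusted p = 0.0146), a call lost without sheath replicate 2 (0.0624) or papilla replicate 2 (0.117), over a range of 0.00316 to 0.117. It was 2.22-fold lower in papilla than in fibroblasts (adjusted p = 0.0336), a call lost without any of the 4 papilla and fibroblast libraries (0.0525 to 0.222, over a range of 0.00782 to 0.222) and with no filter on low values (0.0755).

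The other 3 tandem-pore genes were named after their values were seen. Kcnk10, a relative of Kcnk2, was at 1.16 and 1.51 FPKM in papilla and at no more than 0.0960 FPKM in any other library, and was called in papilla against fibroblasts (log2 1.21, adjusted p = 0.00704) and in sheath minus papilla (log2 -1.22, adjusted p = 0.00663). Kcnk1 was highest in outer root sheath at 10.9 and 7.76 FPKM, followed by matrix at 4.51 and 4.61 FPKM, sheath at 2.60 and 1.56 FPKM, fibroblasts at 1.42 and 1.02 FPKM and papilla at 0.535 and 0.670 FPKM. It was higher in outer root sheath than in sheath (3.36-fold, adjusted p = 0.000367), papilla (6.38-fold, adjusted p = 1.95e-05), fibroblasts (4.62-fold, adjusted p = 8.8e-05) and melanocytes (9.76-fold, adjusted p = 4.3e-06), and not called against matrix. Kcnk7 was highest in matrix at 2.99 and 1.89 FPKM.

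Calcium channel genes made up most of a group of members higher throughout the dermis. This grouping was made after the data were seen. In it, 6 of 59 members were higher in each dermal population than in each of outer root sheath, matrix and melanocytes. The background was 4.2% of genes. Of these 6, 5 have Cacn symbols: Cacna1g, Cacng7, Cacna2d1, Cacna1c and Cacna1a, beside Kcne4. The protein of Cacng7 is known chiefly from AMPA glutamate receptors. The labels mention 6 barcoded adapters for 3 samples in 2 replicates and do not say which populations shared a pool, so a difference between pools and between dermis and the rest cannot be told apart. Cacna1a was lost from this group without papilla replicate 1, outer root sheath replicate 1 or matrix replicate 2, which left 5.

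Cacna1g, a T-type channel that opens near the resting potential (chromosome 11, 94408391 to 94474198), was the calcium channel pore with the highest level. It was at 46.4 and 30.1 FPKM in sheath, 25.6 and 18.4 FPKM in papilla and 24.0 and 15.2 FPKM in fibroblasts, against at most 0.368 FPKM in the 6 libraries outside the dermis. Each dermal population was at least 16.0-fold above each other population (largest adjusted p = 4.4e-06). Within the dermis the sheath libraries were the highest, but no comparison was called: the log2 difference was 0.93 in sheath minus fibroblasts (95% interval 0.16 to 1.70, adjusted p = 0.113), 0.76 in sheath minus papilla (-0.02 to 1.53) and 0.17 in papilla minus fibroblasts (-0.60 to 0.95).

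Cacna1h, the other T-type pore found (chromosome 17, 25374285 to 25433783), set sheath and papilla apart from fibroblasts. It was at 4.79 and 2.55 FPKM in sheath and 7.70 and 5.23 FPKM in papilla, against 0.658 and 0.142 FPKM in fibroblasts. Among the members tested, Cacna1h alone was higher in both sheath and papilla than in fibroblasts: 3.30-fold in sheath (log2 1.72, SE 0.359, adjusted p = 0.0147) and 5.35-fold in papilla (log2 2.42, adjusted p = 0.00294). The sheath call was lost without sheath replicate 1 (adjusted p = 0.0703) or fibroblast replicate 2 (0.109) and with no filter on low values (0.0515), over a range of 0.000472 to 0.109, and the papilla call was kept under all 14 alternatives. Sheath minus papilla was -0.70 (95% interval -1.53 to 0.13, adjusted p = 0.265). The libraries outside the dermis were at 0.0875 to 0.565 FPKM.

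The L-type pores were highest in papilla. Cacna1c, the L-type channel of cardiac and smooth muscle (chromosome 6, 118587240 to 119196418), was at 7.55 and 7.24 FPKM in sheath and 16.3 and 15.8 FPKM in papilla, against 5.07 and 4.29 FPKM in fibroblasts. It was 3.01-fold higher in papilla than in fibroblasts (log2 1.59, SE 0.260, adjusted p = 0.00469), a call kept under all 14 alternatives. In sheath minus papilla the difference was -1.02 (95% interval -1.62 to -0.42, adjusted p = 0.0318), at the edge of the threshold of 1. That call was lost without any 1 of the 6 dermal libraries (adjusted p 0.0615 to 0.162) and under quantile normalization (log2 -0.96), while the groups did not overlap. In sheath minus fibroblasts the difference was 0.57 (-0.03 to 1.17, adjusted p = 0.223).

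Cacna1d, which opens at lower voltages than Cacna1c, was at 1.39 and 1.82 FPKM in sheath and 5.04 and 6.06 FPKM in papilla, against 1.23 and 0.807 FPKM in fibroblasts. It was 3.25-fold higher in papilla than in fibroblasts (adjusted p = 0.00440) and 2.52-fold lower in sheath than in papilla (adjusted p = 0.0130). The call in sheath minus papilla was lost without sheath replicate 1 (0.0712) or papilla replicate 2 (0.0778), over a range of 0.00240 to 0.0778. The skeletal muscle and retinal L-type pores Cacna1s and Cacna1f stayed below 0.1 FPKM in every library.

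The pores of neuronal presynaptic type were highest in fibroblasts among the dermal populations. Cacna1a was at 4.98 and 2.11 FPKM in sheath and 1.82 and 1.30 FPKM in papilla, against 6.59 and 5.15 FPKM in fibroblasts. Papilla was 2.68-fold lower than fibroblasts (adjusted p = 0.0337), a call lost without papilla replicate 1 (0.1) or 2 (0.173) or fibroblast replicate 1 (0.160) or 2 (0.0898) and with no filter on low values (0.0890), over a range of 0.00254 to 0.173. Cacna1e was at 0.234 and 0.0587 FPKM in sheath and 0.156 and 0.0641 FPKM in papilla, against 1.51 and 1.42 FPKM in fibroblasts. It was listed at 0 in melanocytes, and was lower in sheath (log2 -1.11, adjusted p = 0.0123) and in papilla (log2 -1.15, adjusted p = 0.0101). The sheath call was lost without sheath replicate 2 (0.0651) or fibroblast replicate 1 (0.0543), over a range of 0.00446 to 0.0651, and the papilla call without papilla replicate 2 (0.0503), over a range of 0.00339 to 0.0503.

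**Figure D4:**
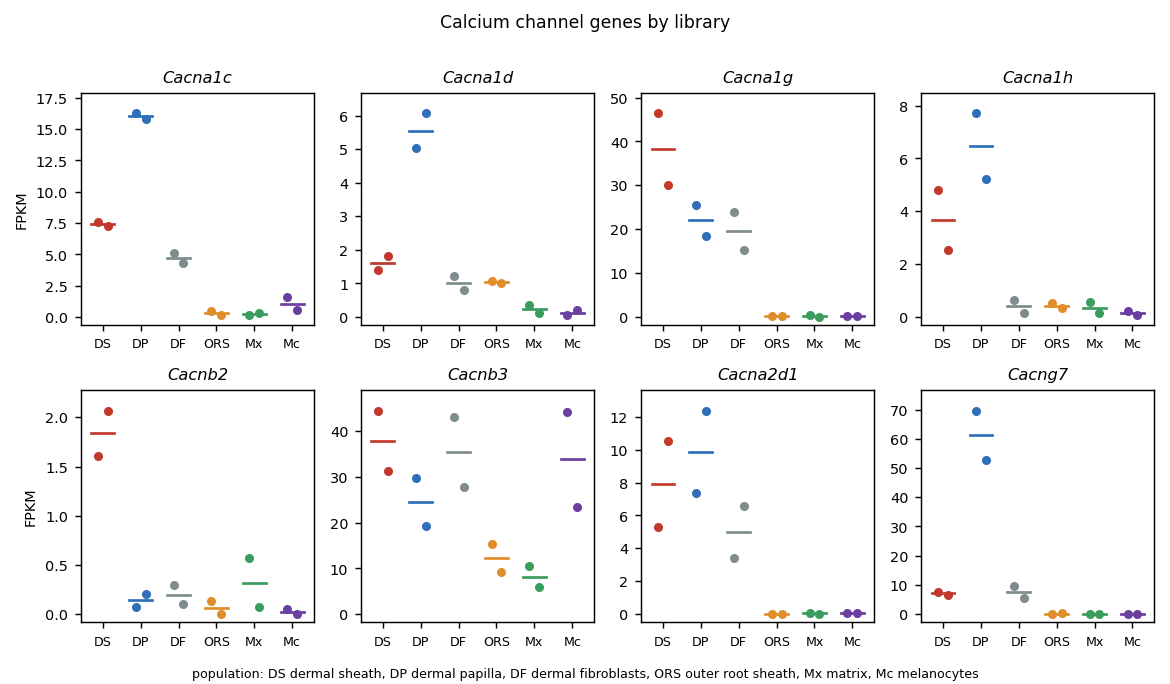
FPKM of 8 calcium channel genes in each library, 1 panel per gene with its own vertical axis; points are libraries and lines the mean of 2. Cacna1g is above 15 FPKM in the 6 dermal libraries and near 0 in the others, Cacng7 and Cacna1c are highest in papilla, Cacna1h is low in fibroblasts and Cacnb2 is at 1.61 and 2.07 FPKM in sheath.

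The auxiliary subunits of calcium channels include Cacnb3, the member with the highest mean level, and Cacng7, which was highest in papilla. Of 8 tested, 1 was higher and 2 lower in sheath than in papilla, 1 higher and 1 lower in sheath than in fibroblasts, and 1 higher in papilla than in fibroblasts. Cacng7 (chromosome 7, 3332955 to 3368221) belongs to the gamma family by name, but its protein is known chiefly as an auxiliary subunit of AMPA glutamate receptors. It was at 7.66 and 6.45 FPKM in sheath and 69.7 and 52.9 FPKM in papilla, against 9.48 and 5.46 FPKM in fibroblasts. Sheath and fibroblasts overlapped, papilla stood far above both, and the other 6 libraries were at 0 to 0.363 FPKM. Cacng7 was 7.50-fold higher in papilla than in fibroblasts (log2 2.91, SE 0.317, adjusted p = 0.000664) and 7.69-fold lower in sheath than in papilla (log2 -2.94, adjusted p = 0.000659).

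The beta subunits, which bring pores to the cell surface, showed 2 patterns. Cacnb2 was at 1.61 and 2.07 FPKM in sheath and 0.0758 and 0.201 FPKM in papilla, against 0.292 and 0.105 FPKM in fibroblasts. It was 2.49-fold higher in sheath than in papilla (log2 1.31, adjusted p = 0.00692) and 2.37-fold higher than in fibroblasts (log2 1.24, adjusted p = 0.00926), which was lost without fibroblast replicate 2 (0.0617, over a range of 0.00314 to 0.0617). Without matrix replicate 2, Cacnb2 was no longer called above all 5 other populations. Cacnb3 was present everywhere, at 44.5 and 31.2 FPKM in sheath, 29.7 and 19.2 FPKM in papilla and 43.2 and 27.8 FPKM in fibroblasts, and at 5.82 to 44.2 FPKM in the other 6 libraries. No dermal comparison of Cacnb3 was called, and the sign of its difference between sheath and fibroblasts (0.10) turned under quantile normalization. Cacnb1 was at 4.15 and 3.00 FPKM in sheath, 9.90 and 7.84 FPKM in papilla and 6.19 and 3.74 FPKM in fibroblasts.

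The alpha2delta subunits, large surface proteins that raise channel density, also divided. Cacna2d1 was at 5.30 and 10.5 FPKM in sheath, 7.38 and 12.4 FPKM in papilla and 3.40 and 6.59 FPKM in fibroblasts, and at no more than 0.0738 FPKM elsewhere. It was called in no dermal comparison (papilla minus fibroblasts 0.87, 95% interval -0.12 to 1.86, adjusted p = 0.242). Cacna2d3 was at 0.787 and 0.800 FPKM in sheath and 2.47 and 3.68 FPKM in papilla, against 4.23 and 6.34 FPKM in fibroblasts. It was 3.46-fold lower in sheath than in fibroblasts (log2 -1.79, adjusted p = 0.00532) and 2.25-fold lower than in papilla (adjusted p = 0.0340). The difference from papilla was lost as a call without any of the 4 sheath and papilla libraries (0.0673 to 0.193, over a range of 0.00487 to 0.193), under quantile normalization (log2 -0.94) and with no filter on low values (0.0790).

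Several members high in fibroblasts were also high in melanocytes, whose RNA was found in the fibroblast libraries. Of 13 members higher in fibroblasts than in sheath or papilla, 4 had a melanocyte mean at or above the fibroblast mean: Kcna2, Kcnj12, Kcnj2 and Kcnn2. When 47.7% and 39.3% of the melanocyte mean were subtracted from the 2 fibroblast libraries, 10 of 18 calls were kept, 6 of 9 against sheath and 4 of 9 against papilla. The remainder was not scaled up for the share taken out. Fibroblast levels after the subtraction may therefore be understated, and the number of these calls lost may be too high. Kcnj8 and Cacna1e, listed at 0 in melanocytes, were unchanged by the subtraction, and Abcc9, Kcnk2, Kcnmb4, Cacna2d3 and Cacna1a kept their calls. Kcnk6 in papilla minus fibroblasts was at the threshold after subtraction (log2 -1.08, adjusted p = 0.0520).

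**Figure D5:**
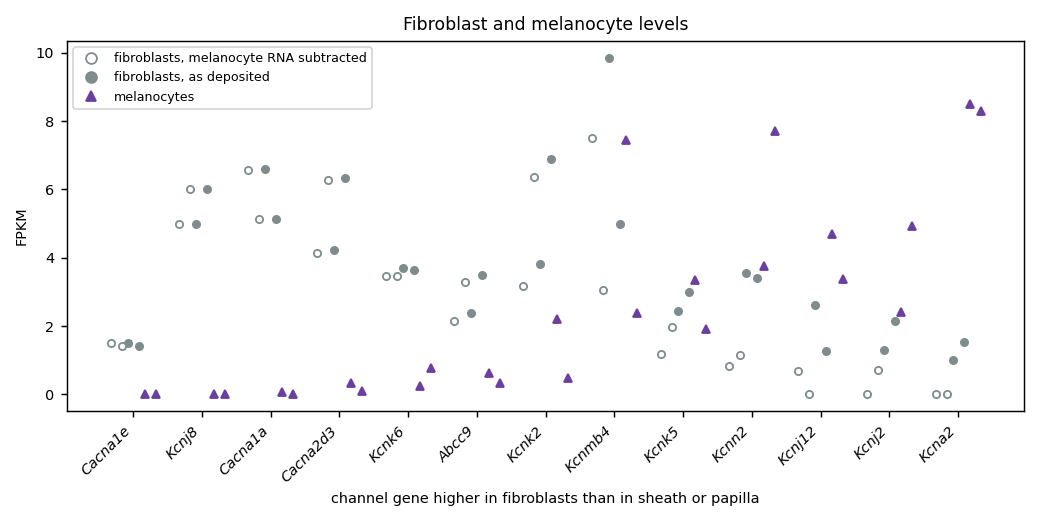
FPKM of the 13 members higher in fibroblasts than in sheath or papilla, with open circles for fibroblast libraries after subtraction of melanocyte RNA, filled circles for the same 2 libraries as deposited and triangles for the 2 melanocyte libraries. On the left, Cacna1e and Kcnj8 have triangles at 0 and circles that coincide in height, and on the right Kcna2 has triangles at 8.50 and 8.29 FPKM and open circles at 0.

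The members Kcnq1ot1 and Kcnrg are not channel genes. Kcnq1ot1 is a long noncoding RNA transcribed antisense to Kcnq1, known for imprinting in cis, and Kcnrg encodes a regulator of Kv assembly. Kcnq1ot1 was at 2.51 to 7.29 FPKM in all 12 libraries and neither was called in any dermal comparison. Over all members, 26 of 60 share some exonic bases with another annotated gene, among them Kcna6 with 39.6%, which was at 0.676 to 1.35 FPKM in the dermal libraries.

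A chosen list of 26 other genes of membrane potential and calcium entry, outside the Kcn and Cacn symbols, is set beside the members. Of 24 tested, 4 were higher (background 7.56% of all genes) and 4 lower (6.6%) in sheath than in fibroblasts, with a median log2 of -0.03. In sheath against papilla 3 were higher (background 7.96%) and 3 lower (7.56%), with a median of -0.03. In papilla against fibroblasts 2 were higher (background 8%) and 4 lower (7.16%), with a median of -0.13. Atp2b4, a calcium pump of the plasma membrane, averaged 81.8 ± 20.3 FPKM in sheath, against 29.6 ± 4.88 in papilla and 21.5 ± 3.07 in fibroblasts (SD, n = 2 each), and was called in both sheath comparisons by limma (adjusted p = 0.00941 and 0.00270). In sheath minus fibroblasts, Slc8a1, the sodium-calcium exchanger, and the calcium-activated cation channel Trpm4 were likewise called higher by limma (adjusted p = 0.0262 and 0.0421). Their sheath libraries were widely spread (6.95 ± 4.12 and 20.4 ± 10.1 FPKM), and Slc8a1 was not called against papilla (adjusted p = 0.0689). Trpv2 averaged 8.71 ± 0.289 FPKM in sheath, against 3.12 ± 0.858 in fibroblasts and 0.778 ± 0.0716 in papilla. It was called higher in sheath in both comparisons (adjusted p = 0.0201 and 0.000877). Piezo2, a mechanically gated channel, averaged 1.67 ± 0.262 FPKM in sheath, against 23.1 ± 0.672 FPKM in papilla, and was 9.06-fold lower in sheath by limma (adjusted p = 0.000263).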

How the data were processed

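RNA was measured in 12 libraries from cells sorted from mouse back skin. Per the labels' protocols, the sorted cells' RNA was purified with a nanoscale kit, amplified with NuGEN Ovation V2 and made into libraries with a NuGEN Ovation kit. Cufflinks 2.1.1 and TopHat2 2.0.3 with Bowtie2 are named in the submitters' processing notes, with genome build mm10. The authors deposited 1 table of FPKM, a unit inferred from Cufflinks and the values; its annotation, filters and strand setting are not given in the sources used here, and depth is unknown.

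FPKM were tested as log2(FPKM + 1) with limma 3.58.1 in R 4.3.3 with an intensity trend and Benjamini-Hochberg adjustment over all genes tested. Fits took genes at 1 FPKM or more in at least 2 libraries: the 6 dermal libraries (13219 genes, 3 residual degrees of freedom) for dermal comparisons, all 12 (13974 genes, 6 residual degrees of freedom) for the others. The calculation was tested on simulated data. Intervals are at 95%. By rule, the text names the KATP genes, the main calcium pores and their subunits, Kcnma1, Kcnmb1, up to 8 called members with the largest log2 difference per dermal comparison and direction, up to 6 per population above all others and the 5 with the highest mean; other members named were chosen after their values were seen. The members and lists were chosen with earlier results of these data known. Some items are not reported here by name and are left out of the figures, but stay in the counts.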

Additional observations from a re-analysis of the deposited data

How the results depend on the processing

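Over 76 pairs of a member and dermal comparison (all called members and those named by rule), 1092 alternative values were computed: 927 kept direction and side of the threshold, 152 were no longer called, 2 became called (Kcnj8 in sheath minus papilla with a pseudocount of 0.1, Abcc9 in papilla minus fibroblasts under quantile normalization) and 11 turned sign. Of these, Kcna2 in sheath minus fibroblasts had been called and was 0.13 after subtraction of melanocyte RNA, and the others had not. Cacnb3 in sheath minus fibroblasts was -0.018 under quantile normalization and -0.21 to 0.41 without 1 library, and in papilla minus fibroblasts 0.26 after subtraction of melanocyte RNA. Without 1 library, Cacna2d1 in sheath minus papilla was -0.75 to 0.12, and in papilla minus fibroblasts Cacna1g was -0.14 to 0.48 and Cacnb2 -0.18 to 0.041.

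With a pseudocount of 5, which compresses low values by construction, calls numbered 1 higher and 2 lower in sheath than in fibroblasts, 2 and 4 in sheath against papilla, and 5 and 0 in papilla against fibroblasts. Members above each other population then numbered 1 in sheath, 3 in papilla and 0 in fibroblasts, outer root sheath and matrix by limma, 0 also at an unadjusted p under 0.05, and 2 were higher throughout the dermis. After subtraction of melanocyte RNA 7 were higher in sheath than in fibroblasts and 5 higher in sheath than in papilla. Under the same setting 4 were lower in papilla than in fibroblasts and 4 above all others in melanocytes. Quantile normalization, which moved the median of all genes by at most 0.051, gave 7 in papilla, 4 in melanocytes and 2 in both epithelial populations. Without both fibroblast libraries, an alternative chosen after seeing the data, outer root sheath had 1 (Kcnk2) and melanocytes 4. With no filter on low values, 10 calls ended; more genes were then tested. The subtraction ended 6 calls in sheath minus papilla (Kcnt2, Kcnk6, Kcnab2, Cacna1c, Cacna2d3 and Kcnd1), whose differences it leaves as they were. These calls ended by the adjusted p alone. The fit takes its spread from all 6 dermal libraries, so the fibroblast libraries enter the p of sheath minus papilla. How far the spread changed was not tested.

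Leaving out 1 library at a time gave 3 to 6 higher and 5 to 9 lower in sheath than in fibroblasts, 4 to 7 and 9 to 13 in sheath against papilla, and 11 to 14 and 3 to 9 in papilla against fibroblasts. The lowest counts were 3 higher in sheath than in fibroblasts without fibroblast replicate 2, and 3 lower in papilla without papilla replicate 2. Members above each other population ranged from 4 to 5 in sheath, 9 to 11 in papilla, 1 to 2 in fibroblasts, 0 to 0 in outer root sheath, 0 to 1 in matrix and 1 to 3 in melanocytes, with 5 to 6 throughout the dermis and 1 to 2 in both epithelial populations. With the replicate number as a block, the dermal counts were 6, 9, 8, 15, 14 and 9 in the order above. Deviations of same-numbered libraries correlated at 0.51 to 0.56 among dermal populations and 0.20 to 0.36 otherwise, but with 2 numbers and no label that pairs them they were not taken as pairs. The block lowered the adjusted p of some differences under the threshold of 1, such as Cacna1g in sheath minus fibroblasts (0.000974) and Cacna2d1 in papilla minus fibroblasts (0.00493), and these were still not called. Depth is unknown, so precision at low FPKM cannot be given.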

Other observations

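Some members differed between the replicates in the same direction in all 6 populations. Kcnj2 and Kcnq1ot1 were higher in replicate 2 throughout, as were 14.1% of the 13974 genes tested. Kcnq1ot1 was at 2.99 and 5.12 FPKM in replicates 1 and 2 of sheath, 2.52 and 5.97 in papilla, 2.51 and 4.01 in fibroblasts, 4.59 and 7.29 in outer root sheath, 4.56 and 7.02 in matrix and 3.15 and 5.01 in melanocytes. The opposite held for Cacna1g, Cacna1h, Cacna2d2, Cacnb3, Kcnip3 and Kcnn1, higher in replicate 1 throughout, as were 10.7% of genes. What the replicate numbers stand for is not given in the sources used here.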
